A study of Mus musculus with 3 samples.

Results

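The genes described here are Pparg and the C/EBP family members Cebpa, Cebpb, Cebpd, Cebpe and Cebpg, regulators that drive the formation of fat cells. These 6 genes were taken by name from 21883 protein-coding genes on placed mouse chromosomes. Every peak of the zinc finger protein ZFP410, or of control IgG, that had at least 1 base inside one of the genes or within 50 kb of it was collected. This gave 4 peaks in all, which were 2 of the 7475 peaks of induced cells, 2 of the 3256 peaks of untreated cells and 0 of the 480 IgG peaks.

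The peaks came from CUT&Tag, which uses an antibody to place a transposase beside the bound protein, where it cuts the DNA and adds sequencing adapters. The cells were Lin-CD29+CD34+Sca1+ brown preadipocytes, precursors of heat-producing fat, sorted from male C57BL/6 mice. The 3 libraries used a ZFP410 antibody on cells after 3 days of brown adipocyte differentiation induction (induced), the same antibody on untreated cells, and IgG on untreated cells. Each group had 1 library, so no difference below has a replicate check, and IgG was analysed here for untreated cells only. Expression was not measured in these files, so the cells could not be set against their marker genes.

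C/EBP proteins bind DNA as dimers through a basic region and a leucine zipper, and PPARG is a nuclear receptor that binds DNA with RXR. In the textbook order of fat cell formation, the products of Cebpb and Cebpd appear early after the hormonal stimulus and turn on Pparg and Cebpa. PPARG and C/EBPA then sustain each other and switch on the genes of the mature fat cell. ZFP410 is known in other cell types for binding at Chd4, which encodes a chromatin remodelling ATPase.

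Cebpa was the one member with a peak in both ZFP410 lists, and both of its peaks lay over its transcription start. Pparg had a weak induced peak upstream of the gene and none in untreated cells. Cebpd had a weak untreated peak inside the gene and none in induced cells. Cebpb, Cebpe and Cebpg had no peak within 50 kb in any of the 3 lists. With an induced peak at 2 of 6 members the family stood near the background, since 39.9% of all coding genes had an induced peak inside them or within 50 kb. Untreated peaks also served 2 of 6 members, beside 23.5% of coding genes, and IgG peaks 0 of 6, beside 1.73%. Cebpa alone, 1 of 6, had an untreated peak in this window that overlapped an induced one, beside 13.4% of coding genes. Over the joined windows of the members, 0.711 Mb, there were 2.81 induced and 2.81 untreated peaks per Mb, each from 2 peaks (exact 95% Poisson interval 0.341 to 10.2). The joined windows of all coding genes held 3.34 induced, 1.54 untreated and 0.136 IgG peaks per Mb.

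**Figure D1:**
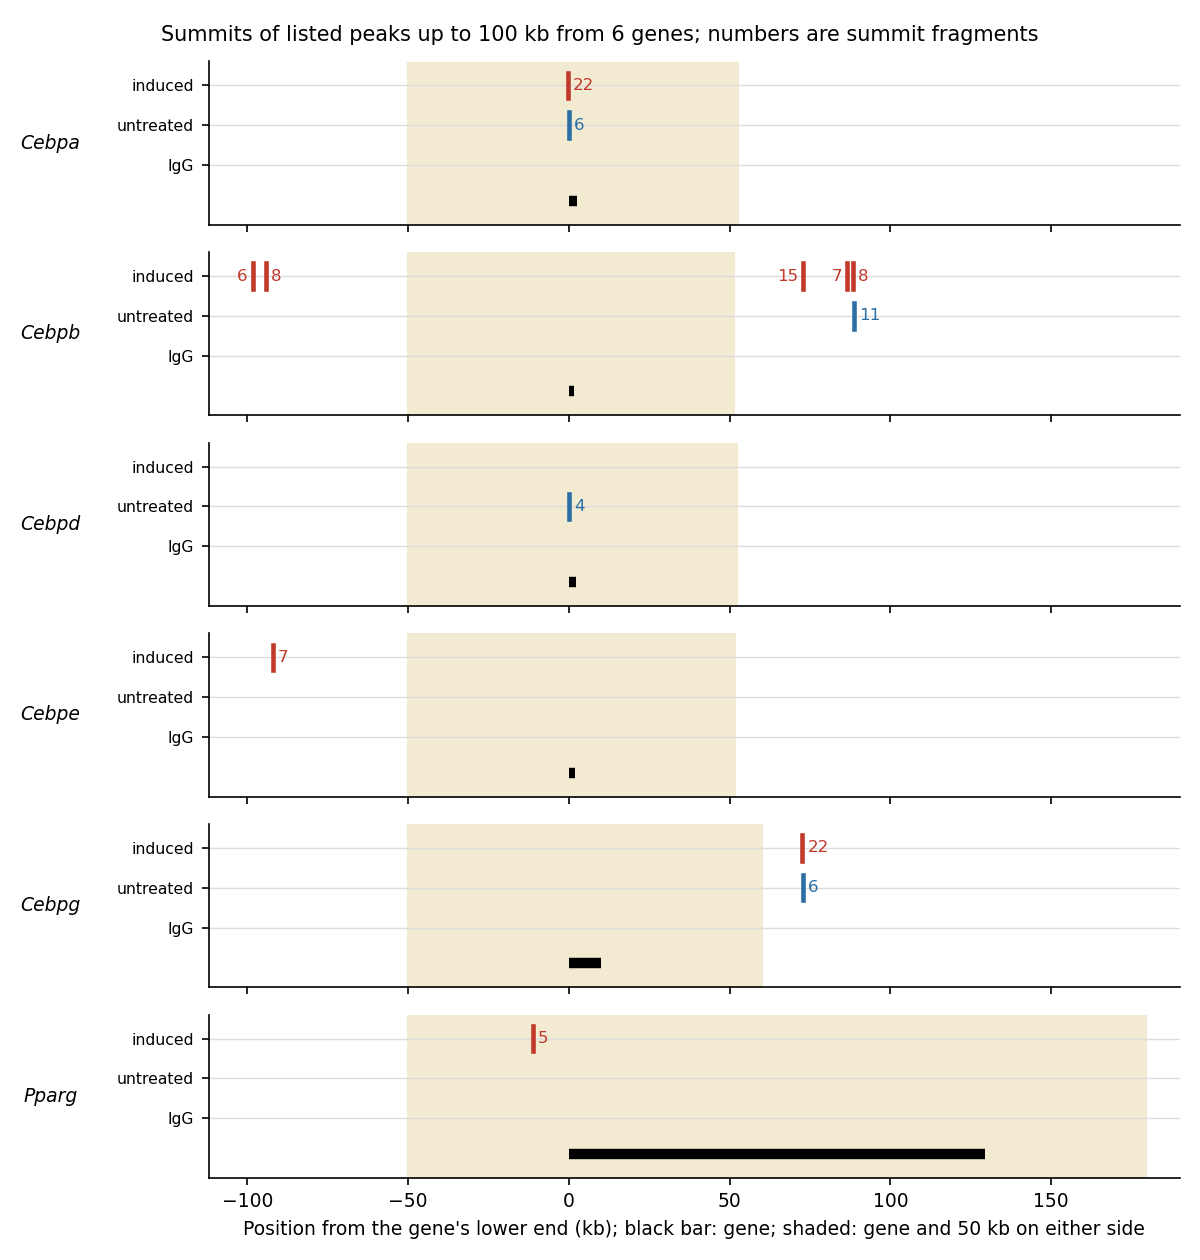
Each panel shows 1 gene as a black bar, with the summits of induced, untreated and IgG peaks up to 100 kb away as ticks. The horizontal axis gives the distance from the gene's lower end in kb, the numbers are summit fragments, and the shading covers the gene and 50 kb on either side. The shaded areas hold 2 peaks at Cebpa, 1 at Cebpd and 1 at Pparg.

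The values behind each peak need a short account. The authors' caller gives the fold of a peak as its summit fragments plus 1 over the local background plus 1, and both terms could be recovered. Enrichment here means summit fragments divided by the background that a library had across the genome, which was 0.246 fragments in the induced, 0.110 in the untreated and 0.0231 in the IgG library. A site of equal enrichment therefore holds 2.24 times as many fragments in the induced library as in the untreated one. The smallest number of fragments in a listed peak was 4 in the induced, 3 in the untreated and 2 in the IgG list. These numbers cannot tell binding in more cells from more binding per cell. Intervals are 95% intervals that cover counting error only.

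Cebpa encodes the C/EBP factor that, with PPARG, maintains the fat cell state. The gene lies on the plus strand of chromosome 7 at 35119293 to 35121928 (mm10). Its induced peak ran from 35118870 to 35119378 and its untreated peak from 35119132 to 35119378. Both peaks ended at the same base, and the 509 bp of the induced peak held the whole of the 247 bp of the untreated one. The induced summit was 196 bp before the transcription start and the untreated summit 37 bp after it, so that the summits were 233 bp apart.

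The bases before the Cebpa start are shown because they are the promoter sequence of a member that carried a peak. They are from RefSeq (GRCm38.p6, plus strand), chr7:35119043-35119292, and end at the base before the start. The induced peak covered all 250 of these bases, and capitals mark the 161 that the untreated peak covered as well.
Cebpa: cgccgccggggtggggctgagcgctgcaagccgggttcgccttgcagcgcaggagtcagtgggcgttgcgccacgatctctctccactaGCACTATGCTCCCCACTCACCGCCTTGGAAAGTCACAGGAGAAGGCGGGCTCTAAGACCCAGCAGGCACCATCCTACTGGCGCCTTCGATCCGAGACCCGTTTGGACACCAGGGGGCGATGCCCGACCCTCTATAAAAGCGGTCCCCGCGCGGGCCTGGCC

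**Figure D2:**
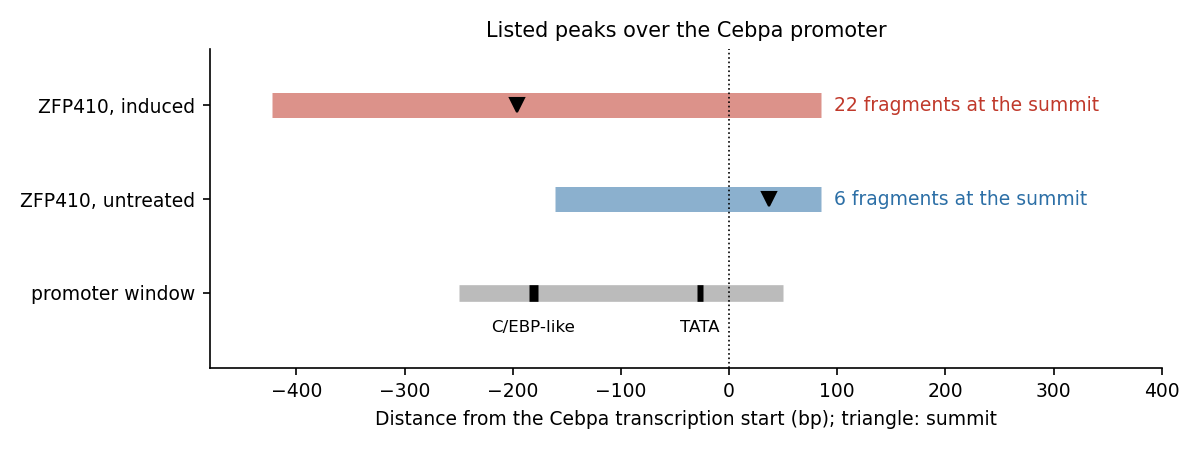
Bars show the extent of the induced and untreated peaks at Cebpa, with triangles at their summits, against the distance from the transcription start in bp. The grey bar is the promoter window of 300 bases, with a C/EBP-like match and a TATA box in black. The induced bar reaches over the C/EBP-like match and the untreated bar starts after it.

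The Cebpa summit held 22 fragments in the induced library and 6 in the untreated one. Enrichment was 89.3-fold over the genome background in induced cells and 54.6-fold in untreated cells. The ratio of induced to untreated enrichment was 1.64 (exact binomial interval 0.644 to 4.93), or 0.71 on the log2 scale. The interval includes 1, so the Cebpa sites did not differ beyond counting error, and both a higher and a lower enrichment in induced cells lie within it. At equal enrichment the 22 induced fragments would have been 9.82 in the untreated library (6.15 to 14.9), and the untreated summit held 6. These numbers belong to summits 233 bp apart, and the induced summit lay outside the untreated peak. The ratio thus compares the highest point of each peak and not the same base, and the untreated fragments at the induced summit are not known. Among 1296 overlapping pairs of low local background, 10.1% had a ratio at or above that of Cebpa, and the median pair had 0.826.

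Within its own list the Cebpa peak stood high after induction. By the authors' fold, 15.6, it ranked 298 of 7475 induced peaks, and the untreated peak, with a fold of 6.31, shared rank 615 of 3256 with other peaks of the same fold (213 in all). The local background of the induced peak was 1.91 times the genome background, and that of the untreated peak equalled it. Counting fragments instead of fold, 5.46% of induced peaks held at least as many as Cebpa, and 31.5% of untreated ones did. IgG had no peak there, but a site of the same enrichment would have held 2.06 fragments in the IgG library by the induced value and 1.26 by the untreated value. The smallest listed IgG peak held 2 fragments, so within counting error a site of this size could have been listed or missed in IgG. The lack of an IgG peak thus says little about this site.

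**Figure D3:**
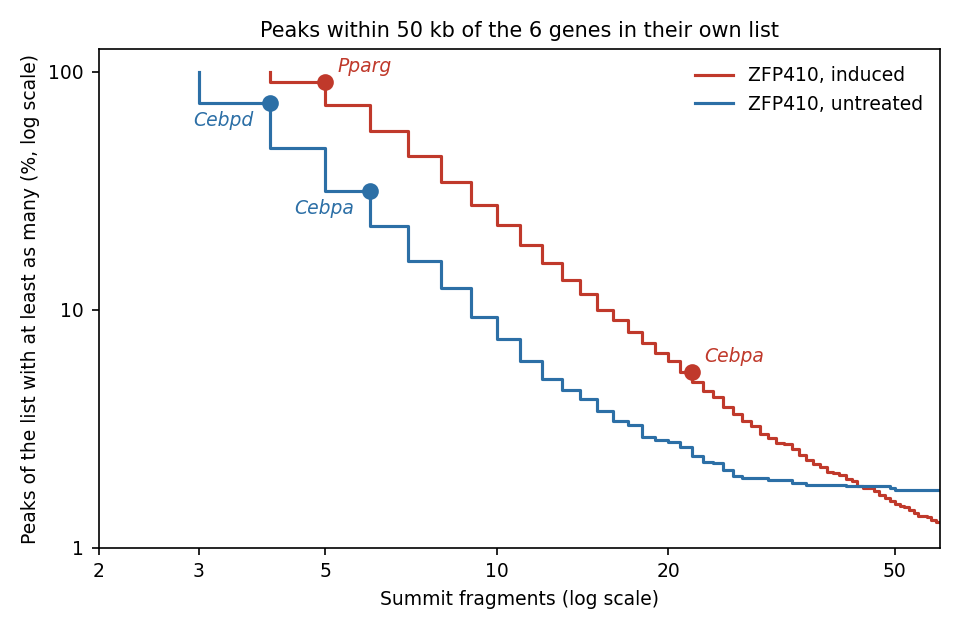
The curves give, for the induced and the untreated list, the percentage of peaks with at least a given number of summit fragments, both axes on log scales. Points mark the peaks within 50 kb of the 6 genes. Cebpa lies among the strongest 5.46% of induced peaks, while Pparg with 5 fragments and Cebpd with 4 lie at the weak end of their lists.

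Peaks at transcription starts were compared next. A summit within 1 kb of a start, or of either gene end where no start was given, was found for 8.59% of coding genes in the induced list, 3.78% in the untreated list and 2.50% in both. Of the 6 members, Cebpa had one in the induced list, Cebpa and Cebpd in the untreated list, and Cebpa in both. Of 1880 coding genes with such an induced peak, 88 had more fragments than Cebpa, and the median gene had 7. Of 828 genes with an untreated one, 194 had more than Cebpa and 450 more than Cebpd, around a median of 5. The genes closest to Cebpa in fragments of both libraries, among 494 others with overlapping peaks there, were Clca2 with 19 induced and 6 untreated fragments, Ube2f with 23 induced and 7 untreated, and Carm1 with 21 induced and 7 untreated. Carm1, which encodes a protein arginine methyltransferase, tied with other genes (4 in all) for its place. Likeness was taken over only these 2 libraries, and the ratios of these genes, 1.41 for Clca2, 1.47 for Ube2f and 1.34 for Carm1, had intervals that include 1. Their closeness to the Cebpa ratio follows from the choice, which used the same fragment numbers.

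**Figure D4:**
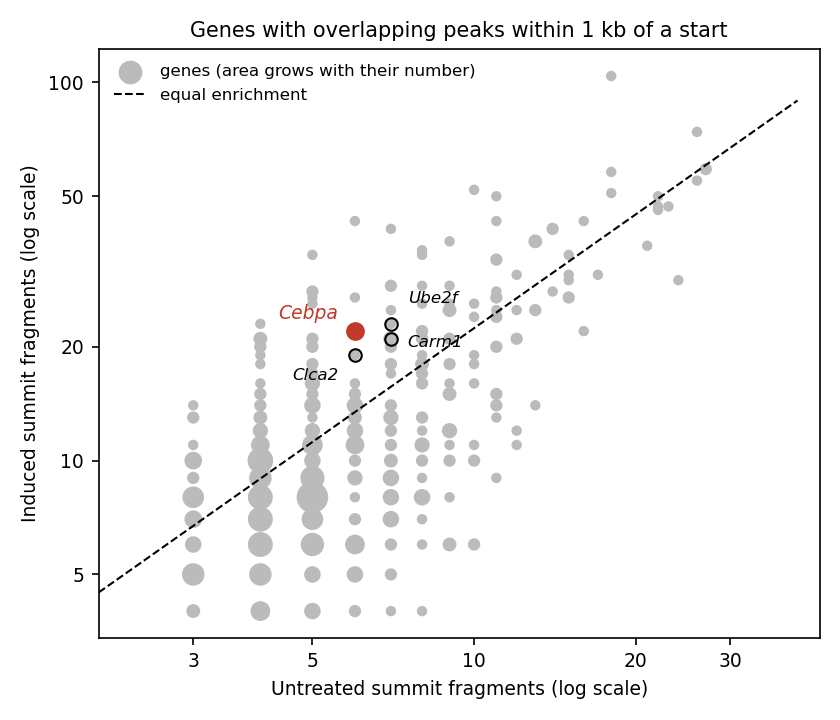
Each grey point stands for genes with overlapping induced and untreated peaks within 1 kb of a start, by induced (vertical) and untreated (horizontal) summit fragments on log scales. The dashed line marks equal enrichment. Cebpa, at 22 induced and 6 untreated fragments, lies above the line with Clca2, Ube2f and Carm1, which were chosen as the genes closest to it.

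Cebpb and Cebpd, the early acting members, differed in where their nearest peaks lay. Cebpd (chromosome 16, 15887286 to 15889545) had an untreated peak at 15887319 to 15887707, inside the gene and with its summit 180 bp from the lower end. Which end of Cebpd is the start was not given in the tables used here, and the other end overlaps Spidr, a gene whose lower end is at 15889224. The Cebpd peak held 4 fragments, an enrichment of 36.4-fold, and shared rank 1480 of 3256, where 74.0% of the untreated list held at least as many. A site of equal enrichment would hold 8.96 fragments in the induced library (2.44 to 22.9). The smallest listed induced peak held 4 fragments, which is below 8.96 but inside that interval, so within counting error a site of equal enrichment could have been listed or missed. The nearest induced summit to Cebpd was 163307 bp away.

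Cebpb (chromosome 2, 167688915 to 167690432) had no peak within 50 kb. Its nearest induced summit was 71294 bp beyond the gene, with 15 fragments over a local background of 5.37 times the genome background. That peak overlapped no untreated or IgG peak. A site of equal enrichment would hold 6.7 fragments in the untreated library (3.75 to 11), above the 3 of its smallest listed peak. The untreated local background there is not known, and a difference between induced and untreated cells was not tested. A second distal site carried peaks of both lists, which overlapped by 431 bp. The induced peak there, at 167777361 to 167777909, held 8 fragments and ranked 2523 of 7475. The untreated peak, at 167777354 to 167777791, held 11 fragments and ranked 134 of 3256, higher in its list than the untreated Cebpa peak. Its summit, 87132 bp beyond the gene, was the nearest untreated one. Both summits of this site lay in the long noncoding RNA gene Gm32287 and the untreated one also in Gm14321.

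The ratio of induced to untreated enrichment at this second distal site was 0.325 (0.113 to 0.886), a lower value in induced cells, and 98.3% of the 1296 overlapping pairs had a ratio at or above it. By library depth in place of genome background it was 0.362 (0.126 to 0.988), but set against the median of those pairs it was 0.393 with an interval that includes 1 (0.137 to 1.07). The site lies outside the 50 kb bound and was singled out after its values were seen. Its ratio, too, compares different bases, since its summits were 148 bp apart. No file links it to Cebpb.

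Pparg encodes the nuclear receptor that is required for fat cell formation, and spans 115360879 to 115490404 on chromosome 6, plus strand. Its induced peak, at 115349696 to 115349859, was 164 bp long and held 5 fragments, an enrichment of 20.3-fold. The summit lay 11032 bp before the gene and 11297, 12502 and 72219 bp before its 3 annotated starts. The peak shared rank 4985 of 7475, and 90.6% of the induced list held at least as many fragments. A site of equal enrichment would hold 2.23 fragments in the untreated library (0.725 to 5.21), below the 3 of its smallest listed peak. Since that 3 lies inside the interval, a site of equal enrichment could, within counting error, have been listed or missed. The lack of an untreated peak thus does not show a difference between induced and untreated cells at this site. No induced, untreated or IgG peak lay inside the 129526 bp of Pparg, and the nearest untreated summit was 363136 bp away.

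Cebpg and Cebpe act mainly outside the textbook cascade of fat cell formation. Cebpg, whose product is a C/EBP partner without the activation domains of the others, lies on the minus strand of chromosome 7 at 35046422 to 35056566, next to Cebpa. Its nearest summits were those of the Cebpa promoter, 62531 bp away in the induced list and 62764 bp away in the untreated list, which is the closest that a peak came to the 50 kb bound from outside. The farthest inside it was the Pparg peak. Cebpe (chromosome 14, 54710363 to 54712174), known for the maturation of granulocytes, had its nearest induced summit 92091 bp away and its nearest untreated summit 303542 bp away. The nearest IgG summits lay between 758761 bp from Cebpe and 6117654 bp from Cebpg.

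Promoter windows of 300 bases, 250 before and 50 after the start, were matched in RefSeq (GRCm38.p6) for 4 of the 6 genes, with 1 window each for Cebpa, Cebpb and Cebpg and 3 for Pparg. Cebpd and Cebpe were not matched. The Cebpa window was covered by the induced peak in all 300 bases and by the untreated peak in 211, and the other 5 windows by no peak of any list. G and C made up 67.3% of the Cebpa window, 80.7% of that of Cebpb, 71.7% of that of Cebpg and 80.3%, 62.7% and 40.3% of those of Pparg, in the order of its starts. The median of 21262 coding promoter windows was 56.3%. The peak-bearing Cebpa window was thus not the richest in G and C among the members.

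The third Pparg window, the one farthest from the induced peak, is shown for contrast, since it has no peak and the lowest G and C content of the 6. Its 250 bases before the start are at chr6:115421816-115422065 (GRCm38.p6, plus strand), and capitals mark the matches described next.
Pparg: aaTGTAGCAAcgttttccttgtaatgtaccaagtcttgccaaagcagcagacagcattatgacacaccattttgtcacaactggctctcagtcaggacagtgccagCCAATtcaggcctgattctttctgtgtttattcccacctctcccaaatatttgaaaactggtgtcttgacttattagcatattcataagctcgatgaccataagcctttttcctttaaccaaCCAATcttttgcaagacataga

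Motifs were searched on both strands of these windows. The core of the ZFP410 motif, CCCATAATA, was in none of the 6 member windows and in 0.0847% of all coding windows (18 of 21262). The C/EBP motif TTGCNNCAA (1.79% of all windows) and the cAMP response element TGACGTCA (2.23%) were in none of the 6 either. The GC box GGGCGG, present in 46.2% of windows, had 5 matches in Cebpb, of which a pair overlapped, 1 in Cebpg and none in Cebpa. The first Pparg window held 1 GC box and the second 2. The CCAAT box, CCAAT, present in 38.2%, had 2 matches in Cebpg, 1 in the second and 2 in the third Pparg window, and none in Cebpa. Windows that shared at least 1 bp with a peak, as that of Cebpa did, numbered 1421 for induced and 549 for untreated peaks. The ZFP410 core was in 5 of those under induced peaks (0.352%) and 3 of those under untreated peaks (0.546%). The GC box was in 72.2% of windows under induced and 75.2% of windows under untreated peaks. The shares were 46.8% (induced) and 43.7% (untreated) for the CCAAT box, 5.56% (induced) and 6.92% (untreated) for the cAMP response element, and 1.06% (induced) and 1.28% (untreated) for the C/EBP motif.

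After the Cebpa sequence had been read, 2 more motifs were searched. TTGCNNCA, the C/EBP motif without its last base, was in 10.8% of all windows, 9.71% of those under induced and 10.7% of those under untreated peaks, and had 1 match in the Cebpa window, TTGCGCCA at positions -185 to -178 from the start, 11 bp from the induced summit and outside the untreated peak. The third Pparg window held it on the other strand as TGTAGCAA. C/EBP proteins are known to bind the mouse Cebpa promoter, but a match of these letters alone does not show binding, and C/EBP binding was not measured here. TATAAA, in 12.6% of all windows, 5.35% of those under induced and 5.65% of those under untreated peaks, lay at -30 to -25 in Cebpa, 166 bp from the induced summit and 62 bp from the untreated one. It also lay after the start in Cebpb, and on the other strand in the second Pparg window.

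Other regulators of fat cell formation were described through a list of 28 genes, among them further C/EBP partners and antagonists. An induced peak lay inside or within 50 kb of 15 of them (53.6%), an untreated peak of 10 (35.7%) and an IgG peak of 0, beside 39.9%, 23.5% and 1.73% of all coding genes. Within 1 kb of a start, 3 of the 28 had an induced summit, 2 an untreated one and 1 both. The shares of all coding genes were 8.59%, 3.78% and 2.50%. The gene with both was Egr2, an early zinc finger regulator, with 8 induced and 5 untreated fragments, a ratio of 0.714 (0.206 to 2.77). In the induced list alone were Ddit3, which encodes the C/EBP family member CHOP, an inhibitor of other C/EBP proteins, with 9 fragments over a local background of 5.14 times the genome background, and Fos with 8. In the untreated list alone was Klf5, an activator of Pparg, with 3, the smallest number in that list. At equal enrichment Ddit3 and Fos would hold 4.02 and 3.57 untreated fragments, little above that 3. For Ddit3 this comparison is less sure, since its induced local background was raised and its untreated one is not known. Klf5 would hold 6.72 induced fragments, where the smallest listed induced peak held 4. Whether these genes differ between induced and untreated cells was not tested. These genes with peaks in 1 list were named after their values were seen.

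Of 20 genes that PPARG and C/EBPA are known to switch on in fat, 14 (70.0%) had an induced peak inside or within 50 kb, 9 (45.0%) an untreated one and 0 an IgG one. At starts, 2 of the 20 had an induced summit and 0 an untreated one, beside 8.59% and 3.78% of all coding genes. The 2 were Acsl1, which activates fatty acids, and Dgat2, which makes triglyceride, with induced peaks of 10 and 9 fragments. Both were likewise named after their values were seen. Equal enrichment would put 4.46 untreated fragments at Acsl1 and 4.02 at Dgat2, little above the 3 of the smallest listed untreated peak. The shares of these 20 genes inside or within 50 kb stand beside 39.9% of all coding genes for induced, 23.5% for untreated and 1.73% for IgG peaks. The difference from all coding genes was not tested for either list of genes.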

How the data were processed

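ZFP410 CUT&Tag of induced and untreated brown preadipocytes and IgG of untreated cells gave 1 peak list each. The submitters' processing notes name the build mm10 and the tools MACS2 2.1.1, Picard and Bowtie2 2.2.6. How duplicates were handled, and what control the caller had, is not given in the sources used here. For each peak the deposited lists give a score, a fold over the local background, a −log10 p-value and q-value and a summit, and a q threshold of 0.1 stands in the peak names.

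Fold and p-value together gave whole summit fragments for 7473 of 7475 induced, 3255 of 3256 untreated and all 480 IgG peaks, within 0.001 in −log10 p. The step was tested on data simulated with the same formulas, which checks the computation and not the formulas. By the local backgrounds, depth in the induced library was 2.01 times that of untreated cells. This takes the most frequent raised local background of each library as a single control fragment. With the control not known, that assumption was not checked, and the ratios by library depth rest on it. Genes came from RefSeq (GRCm38.p6, the coordinates of mm10), and peaks overlapped when they shared at least 1 bp. The values were computed with Python 3.11.15, pandas 2.3.3 and SciPy 1.17.1.

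Planned for naming were all 6 members, every peak within 50 kb, the 3 genes closest to Cebpa and listed genes with start peaks in both ZFP410 lists. Also named were listed genes with a start peak in 1 list and Spidr, which overlaps Cebpd. Peaks between 50 and 100 kb, with the genes at or near them, were described in addition. The members and lists were chosen with earlier results of these data known. With 1 library per group no test between groups was made. Other windows, thresholds, overlap rules and scalings were tried.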

Additional observations from a re-analysis of the deposited data

How the results depend on the processing

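Of 46 other settings of the counts and of the Cebpa ratio, 32 stayed within 1.5 times the reported count or within the interval of the ratio, and 14 did not. The 32 include IgG counts, which were 0 at every setting, and a filter on IgG overlap that had no peak near a member to remove. They therefore say little about how stable the ZFP410 counts are. Only the ratio has a direction, and it did not change, but the settings tried could hardly have changed it. The depth scale of 2.01 is below 2.24, and the medians of 0.824 and 0.826 are below 1, so these could only raise the ratio. The local backgrounds taken off were small beside the summit fragments. Division by the local background, which at the induced Cebpa peak was 1.91 times the genome background, was not tried. With a window of 20 kb, with summits instead of peaks in the window, and without peaks that overlap IgG, the counts did not change. A window of 100 kb gave 8 induced peaks at 5 genes and 3 untreated peaks at 4 genes, with 2 untreated peaks overlapping an induced one. Where the −log10 q had to reach 5, and likewise where the fold had to, 1 induced and 1 untreated peak were left, each at 1 gene, Cebpa. The Pparg and Cebpd peaks fell below both cut-offs, with −log10 q of 3.11 (Pparg) and 2.81 (Cebpd) and folds of 4.81 and 4.5. The overlap at Cebpa was lost, with 0 shared peaks, when 50% of both peaks had to overlap, since less than that part of the 509 bp of the induced peak is covered by the 247 bp of the untreated one, and when summits had to lie within 100 bp. The Cebpa ratio was 1.82 by library depth, 1.63 after taking off the local background and 1.99 set against the median of all 1579 overlapping pairs. Set against the median of the pairs of low local background, an alternative chosen after seeing the data, it was 1.98. No paired analysis was possible because each group held 1 library. Every comparison rests on 1 library per group, and the Pparg and Cebpd peaks held only 5 and 4 fragments.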

Other observations

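Between 50 and 100 kb away, the surroundings of Cebpb held more induced peaks than those of the other members. In addition to the peaks described above, a peak of 7 fragments at 167775258 to 167775542 lay inside Gm32287, 85038 bp beyond the gene. On the other side, peaks of 6 and 8 fragments lay 98361 and 94104 bp before Cebpb, inside the long noncoding RNA gene Gm11476. None of these 3 overlapped an untreated or IgG peak, and at equal enrichment they would have held 3.12, 2.68 and 3.57 fragments in the untreated library, close to the 3 of its smallest listed peak. The induced peak nearest to Cebpe, 7 fragments at 54618104 to 54618295, lay 277 bp from Psmb5, a proteasome subunit gene.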
